A study of Mus musculus with 4 samples.

Results

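The mitochondrial ribosomal protein genes are the nuclear genes for the protein parts of the ribosome inside mitochondria. They were taken here as every gene whose single symbol in the array's annotation begins with Mrpl or Mrps followed by a digit, which gave 77 genes of 19938 with a single symbol, read by 85 probe sets. Of the 77, 48 are named Mrpl and 29 Mrps. Where a gene had several probe sets the brightest on average over the 4 arrays stood for it, and all 77 passed the filter on dim genes. Mrpl53 lay on a probe set shared with another gene symbol and was not analysed here.

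Expression was measured on 1-colour Affymetrix arrays in macrophages grown from C57BL/6J mouse bone marrow for 7 days. The GM-CSF group (called M1 by the submitters, 2 arrays) grew with granulocyte-macrophage colony-stimulating factor and was sorted as CD45+, MHC class II+, F4/80+ and CD8a-. The M-CSF group (called M2, 2 arrays) grew with macrophage colony-stimulating factor, for which the medium held 20% supernatant from the mouse fibroblast line L929, and was sorted as CD45+, F4/80+ and CD11b+. Both groups carried no other stated treatment or allele, and grew in the same serum-supplemented medium. Growth factor, supernatant and sort gate differ together between the groups, so their parts cannot be told apart. The labels do not say whether the replicates of a group were cultured separately or came from different animals. The p-values therefore measure only the spread between these samples, and between the M-CSF replicates that spread may be technical. The GM-CSF replicates differed in Xist and a Y-linked gene, as given with the array checks, and so came from animals of different sex. GM-CSF replicate 1 had the pattern of female cells and the other arrays that of male cells. Sex is therefore unbalanced between the groups and differs within the GM-CSF pair. Its part in the differences was not tested.

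Mitochondria keep a small genome that encodes a few subunits of the respiratory chain and the RNAs of their own ribosome. The proteins of that ribosome are made in the cytosol from nuclear genes, imported, and assembled with the mitochondrial ribosomal RNAs into a small subunit, which reads the messenger RNA, and a large subunit, which forms peptide bonds. Many of these proteins descend from bacterial ribosomal proteins and others exist in mitochondria alone. The Mrpl and Mrps names mark the large and the small subunit with exceptions: Mrps30 and Mrps18a encode large-subunit proteins, and the Mrps36 product has been assigned to the oxoglutarate dehydrogenase complex rather than to the ribosome. Macrophages are known to change their respiration with their state of activation, which makes this set of interest when M1 and M2 cells are compared.

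Promoters are shown for 5 members: the 3 that were lower in GM-CSF cells (Mrpl3, Mrpl16 and Mrpl23), the member with the highest difference (Mrpl27), and Mrpl39. Mrpl39 was picked as a member with a difference above 0 that carries an NRF1 core. Neither Mrpl27 nor Mrpl39 passed an adjusted p of 0.05. The 7 members with an NRF1 core had a median log2 difference (GM-CSF minus M-CSF) of -0.03. Each sequence is the 150 bases before the annotated transcription start, 5′ to 3′ on the gene's strand, from the RefSeq promoter table (build GRCm38.p6). Capitals mark a core motif of a transcription factor group known to act on nuclear genes of mitochondria: CCGGAAGT for the ETS factors that include GABP, or GCGCATGCG for NRF1, searched on both strands.
Mrpl3 (chr9:105053118-105053267, + strand): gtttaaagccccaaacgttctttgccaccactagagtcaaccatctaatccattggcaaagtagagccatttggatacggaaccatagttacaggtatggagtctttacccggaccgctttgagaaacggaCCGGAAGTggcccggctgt
Mrpl16 (chr19:11770265-11770414, + strand): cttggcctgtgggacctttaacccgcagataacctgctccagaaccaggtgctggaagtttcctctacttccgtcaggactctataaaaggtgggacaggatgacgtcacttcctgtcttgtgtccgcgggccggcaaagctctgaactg
Mrpl23 (chr7:142532882-142533031, + strand): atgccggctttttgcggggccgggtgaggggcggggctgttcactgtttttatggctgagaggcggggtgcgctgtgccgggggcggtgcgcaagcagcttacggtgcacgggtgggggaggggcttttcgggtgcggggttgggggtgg
Mrpl27 (chr11:94653641-94653790, + strand): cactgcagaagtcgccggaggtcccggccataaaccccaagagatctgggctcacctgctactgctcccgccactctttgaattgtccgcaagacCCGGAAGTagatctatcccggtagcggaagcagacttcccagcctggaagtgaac
Mrpl39 (chr16:84735245-84735394, - strand): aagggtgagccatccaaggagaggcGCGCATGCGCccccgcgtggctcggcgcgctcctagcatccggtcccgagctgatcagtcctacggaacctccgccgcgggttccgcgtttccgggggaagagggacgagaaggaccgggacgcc

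The ETS core ended 11 bases before the start of Mrpl3 and 47 bases before that of Mrpl27, and in Mrpl39 the NRF1 core occurred on both strands, overlapping itself. Promoter windows of 300 bases (250 before and 50 after the start) were matched by symbol for 68 of the 77 members, in 74 windows. The ETS core was found in 16.2% of these windows and in 3.89% of all 32851 windows of the table. For the NRF1 core the shares were 9.46% and 1.75%, for the YY1 core AAGATGGCG 10.8% and 1.40%, and for the E-box CACGTG, to which Myc and its partner Max bind, 9.46% and 7.15%. None of these letter strings contains another. Of the 68 members 40 held none of the 4 strings, which says only that these letters were not in this window.

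The expression values are log2 signals made by RMA, which subtracts background, gives every array the same spread of probe values and combines the probes of each set into 1 value. Over the members the signal ran from 5.78 to 10.40 on GM-CSF replicate 1, from 5.97 to 10.30 on GM-CSF replicate 2, from 6.16 to 10.03 on M-CSF replicate 1 and from 5.83 to 10.07 on M-CSF replicate 2. The means over the arrays lay between 5.94 for Mrpl47 and 10.19 for Mrps21. All 77 of these means were above 5.85, the mean 95th percentile of the 1194 olfactory and vomeronasal receptor genes taken as background. Mrpl47, with a GM-CSF mean of 5.89, lay closest to it. Its signal was below that level on GM-CSF replicate 1 (5.78) and M-CSF replicate 2 (5.83). Probe sets bind with different strength, so these signals do not rank the transcripts of different genes.

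The arrays were checked on gene lists and on replicate distance. All 9 macrophage markers, among them Adgre1 (F4/80), Csf1r and Cd68, were above background in both groups, with summed signals of 15.16 to 15.30. Both groups were sorted on F4/80, so that marker is no independent check. The summed signal of the dendritic cell markers was 10.74 and 11.22 in GM-CSF and 8.99 and 9.05 in M-CSF cells (3 of 8 markers higher, with Flt3, Xcr1 and Siglech at background). That of the B cell markers was 8.28 and 8.49 against 10.31 and 10.35 (4 on the array, 2 tested and 1 lower, with Cd79a and Ms4a1 at background). The part of either in the members' values was not tested. The neutrophil and granulocyte precursor markers summed to 10.50 and 9.44 in GM-CSF and 9.84 and 9.65 in M-CSF cells (10 on the array, 9 tested and 1 lower, with Ly6g and Retnlg at background). Summed signals of the T cell, fibroblast, erythroid and mast cell lists ran from 7.19 to 9.32, with 1 gene higher and 0 lower in all. GM-CSF replicate 1 stood apart in Xist, which is transcribed from the silenced X (11.58 against 4.53 to 4.93 on the other arrays), and in the Y-linked Eif2s3y (3.66 against 9.10 to 9.32). Over the 14995 genes tested, the difference between replicates had an SD of 0.325 for the GM-CSF pair and 0.180 for the M-CSF pair. In bulk samples like these, fewer cells of a type and less RNA per cell cannot be told apart.

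Most mitochondrial ribosomal protein genes had nearly the same signal in both kinds of macrophage. Mrpl3, Mrpl16 and Mrpl23, all large-subunit proteins with a bacterial counterpart, were lower in GM-CSF cells by 1.85-fold, 1.40-fold and 1.38-fold, and 0 members were higher (limma, Benjamini-Hochberg adjusted p under 0.05 over all genes tested). Of all genes tested 4.53% were lower and 6.18% higher by the same rule, so the 3.90% of members that were lower is near the background. At an unadjusted p under 0.05 there were 9 members, 11.7% of them against 25.5% of all genes. No member differed by 2-fold, a log2 difference of 1, against 4.83% of all genes. The largest difference among the members was 1.85-fold, and 76 of the 77 differed by less than 0.50 on the log2 scale (1.41-fold), against 86.0% of all genes tested.

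A difference that misses the threshold does not show that a gene is equal in both groups, so the intervals are given. The standard error of a member's difference ran from 0.10 to 0.19, with a median of 0.11, and the 95% interval reached a median of 0.28 to either side. For 76 of the 77 members the whole interval lay within 2-fold, the exception being Mrpl3, against 89.7% of all genes tested. The intervals are for single genes and are not adjusted for the number of genes.

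**Figure D1:**
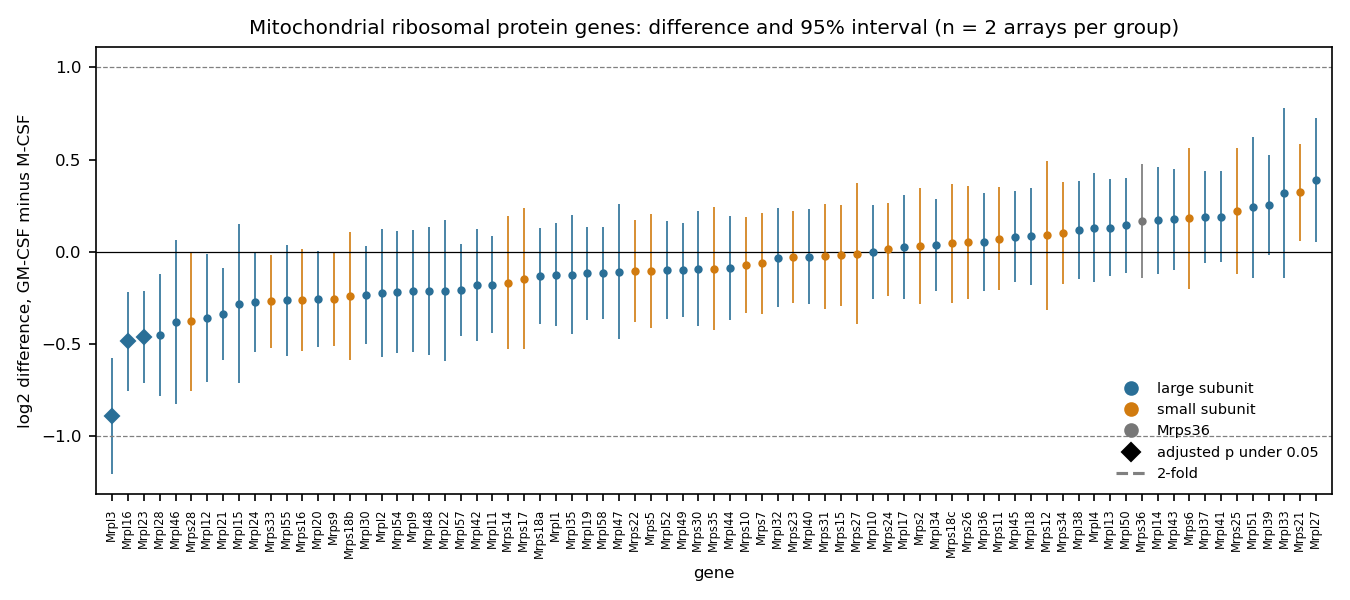
The log2 difference (GM-CSF minus M-CSF) of each of the 77 members is plotted with its 95% interval from limma, in rising order, coloured by subunit; diamonds pass an adjusted p of 0.05 and dashed lines mark 2-fold. The differences run from -0.89 (Mrpl3) to 0.39 (Mrpl27), and the interval of Mrpl3 alone crosses a 2-fold line.

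Mrpl3 had the largest difference. It encodes the mitochondrial counterpart of bacterial protein L3, which binds the ribosomal RNA near the site of peptide bond formation. Its probe set (10588403) read 8.98 and 9.25 in GM-CSF replicates 1 and 2 and 10.03 and 9.98 in M-CSF replicates 1 and 2. Both GM-CSF arrays lay below both M-CSF arrays, and the gap between the groups was wider than that within either pair. The log2 difference was -0.89 ± 0.13 (SE, n = 2 per group, limma adjusted p = 0.00934), with an interval from -1.20 to -0.58. With the first GM-CSF array left out it was -0.76, and with the second left out -1.03.

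Mrpl16, the counterpart of bacterial L16, had the next largest difference. Its probe set (10461663) read 7.73 and 7.79 in GM-CSF cells against 8.32 and 8.18 in M-CSF cells, with no overlap. The log2 difference was -0.49 ± 0.11 (limma adjusted p = 0.044). Mrpl23 encodes the counterpart of L23, which sits where the new chain leaves the large subunit. It read 9.33 and 9.36 in GM-CSF cells against 9.78 and 9.83 in M-CSF cells on its brighter probe set (10559233), again with no overlap. The log2 difference was -0.46 ± 0.10 (limma adjusted p = 0.0404).

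The 3 calls were not kept under every choice of arrays. Without GM-CSF replicate 1 all 3 were called lower, and Mrpl27 was called higher. Without M-CSF replicate 1 no member was called, with limma adjusted p of 0.143, 0.318 and 0.249 for Mrpl3, Mrpl16 and Mrpl23, and without M-CSF replicate 2 none either, with 0.133, 0.204 and 0.277. The differences were then -0.87 and -0.92 for Mrpl3, -0.41 and -0.56 for Mrpl16, and -0.49 and -0.44 for Mrpl23, close to those over all arrays. In these fits only the wider GM-CSF pair informs the residual spread, and the genes called over the whole array were 261 and 233, against 1605. Without GM-CSF replicate 2, 9 members were lower and 2 higher, in a fit where only the M-CSF pair, the closer of the pairs, informs the residual spread. With the replicate numbers of the titles as a block, or with no filter on dim genes, Mrpl3 alone was called.

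The members next to the threshold were Mrpl28 and Mrpl21, 2 further large-subunit proteins with bacterial counterparts. Mrpl28 read 7.12 and 7.41 in GM-CSF cells against 7.66 and 7.78 in M-CSF cells, a log2 difference of -0.45 ± 0.14 (limma adjusted p = 0.0939). Mrpl21 read 7.16 and 7.13 against 7.46 and 7.50, a log2 difference of -0.34 ± 0.10 (limma adjusted p = 0.0974). Neither gene overlapped between the groups and neither passed. Mrpl46, a large-subunit protein of mitochondria alone, read 7.07 and 7.55 against 7.82 and 7.57, with -0.38 ± 0.18. Its second GM-CSF array and second M-CSF array were almost equal. Mrpl12, the stalk protein of the large subunit, which has also been reported to bind the mitochondrial RNA polymerase, read 7.92 and 8.27 against 8.45 and 8.46, with -0.36 ± 0.14 (limma adjusted p = 0.182). Leaving out the first GM-CSF array moved the difference to -0.18, and leaving out the second moved it to -0.53.

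On the other side of 0, no member passed. Mrpl27, the counterpart of L27 near the peptidyl transferase centre, read 8.63 and 8.96 in GM-CSF cells against 8.40 and 8.42 in M-CSF cells, a log2 difference of 0.39 ± 0.14 (limma adjusted p = 0.141). Mrps21, the counterpart of small-subunit protein S21, read 10.40 and 10.30 against 9.98 and 10.07, with 0.32 ± 0.11 (limma adjusted p = 0.125). The groups of both genes did not overlap. Mrpl33 read 7.44 and 6.88 against 6.84 and 6.85, so that its difference of 0.32 ± 0.19 came mainly from GM-CSF replicate 1 and was 0.04 without that array. Mrpl39, a large-subunit protein of mitochondria alone, read 9.71 and 9.64 against 9.50 and 9.35, with 0.25 ± 0.11. Mrpl51 read 8.31 and 8.20 against 8.22 and 7.81, with 0.24 ± 0.16 and overlapping groups, and its difference was 0.04 without M-CSF replicate 2.

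**Figure D2:**
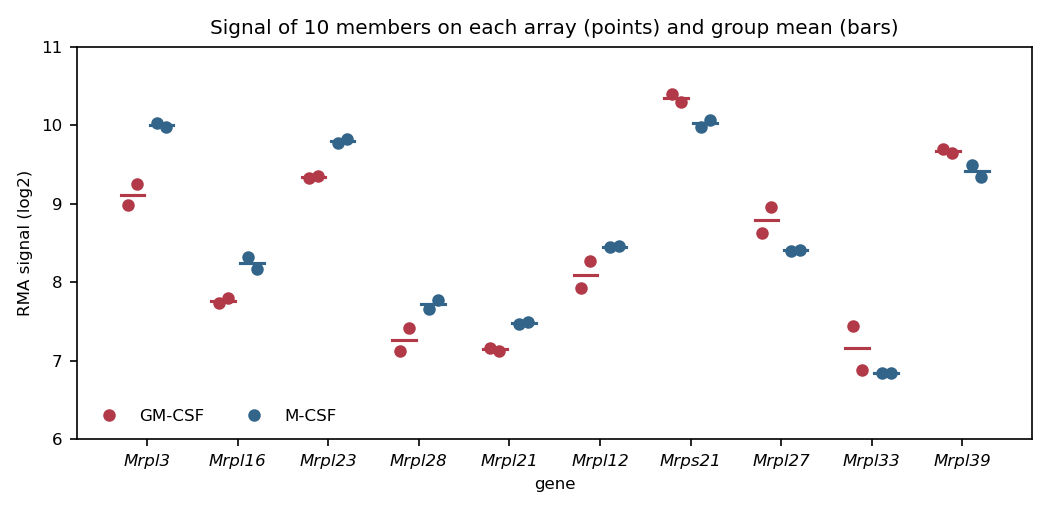
RMA signal (log2) of 10 members on each of the 4 arrays (points) with the group means (bars), for GM-CSF and M-CSF cells. Mrpl3 reads 8.98 and 9.25 against 10.03 and 9.98, and Mrpl33 reads high on 1 GM-CSF array only; values compare the groups within a gene and not one gene with another.

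Members were counted by whether the groups overlapped. Both GM-CSF arrays lay below both M-CSF arrays for 27 members (35.1%, against 29.2% of all genes tested) and above them for 15 (19.5%, against 26.3%). The members' share was somewhat above the background in the first direction and below it in the second, and neither was tested against it. The median difference of the 77 members was -0.09, beside -0.01 for all genes tested, with 49 members below 0 and 28 above. Their differences had an SD of 0.216, against 0.526 for all genes.

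The shift of the whole set was set beside the distance between replicates. The median deviation of the members from their own mean over the arrays was -0.07 on GM-CSF replicate 1, 0.001 on GM-CSF replicate 2, 0.08 on M-CSF replicate 1 and -0.01 on M-CSF replicate 2. The second arrays of both groups were close to each other, and the first arrays lay to either side. Between the 2 M-CSF arrays the median member differed by 0.05, with 51 members higher on replicate 1 and 26 on replicate 2. Between the 2 GM-CSF arrays it differed by -0.04, with 32 members higher on replicate 1 and 45 on replicate 2. For GM-CSF replicate 1 the median member differed by -0.15 from M-CSF replicate 1 and by -0.04 from M-CSF replicate 2, and for GM-CSF replicate 2 by -0.07 and -0.01. The 4 values are all below 0 but share arrays. The median difference of the members between the groups was -0.01 without M-CSF replicate 1 and -0.13 without M-CSF replicate 2, and -0.04 or -0.10 when the first or the second GM-CSF array was left out.

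**Figure D3:**
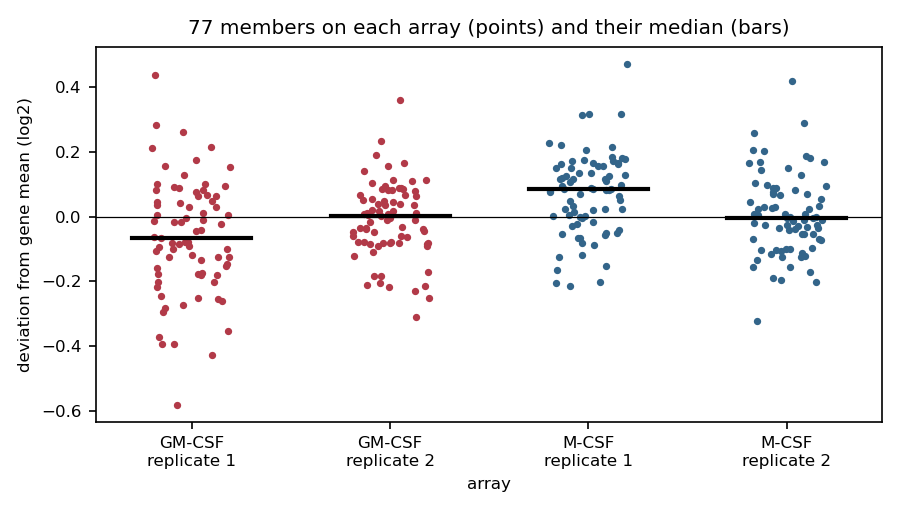
Deviation of each of the 77 members from its own mean over the 4 arrays (log2, points) on each array, with the median per array (bars). The medians are -0.07 and 0.001 on the GM-CSF arrays and 0.08 and -0.01 on the M-CSF arrays: the second arrays of both groups lie near 0 and the first arrays to either side.

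The subunits were compared by counts and medians. Among the 50 large-subunit genes, Mrps30 and Mrps18a included, 3 were lower and 47 did not pass, with a median difference of -0.11 and 33 below 0. Among the 26 small-subunit genes none passed, with a median of -0.03, a range from -0.38 to 0.32 and 16 below 0. Of the 30 large-subunit proteins with a bacterial counterpart 3 were lower, beside 4.53% of all genes tested, and their median was -0.15. Of these 3, only Mrpl3 kept its call with no filter or with the replicate block. The 20 large-subunit proteins of mitochondria alone had a median of -0.09 and ran from -0.38 (Mrpl46) to 0.25 (Mrpl39). The 16 small-subunit proteins with a bacterial counterpart had a median of -0.04, and the 10 of mitochondria alone -0.03. These medians were not tested against each other.

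The other large-subunit genes held differences on both sides of 0 and none passed. On the lower side were Mrpl15 (-0.28 ± 0.18), Mrpl24 (-0.27 ± 0.11), Mrpl55 (-0.26 ± 0.125) and Mrpl20 (-0.26 ± 0.11). Mrpl10 and Mrpl40 were nearly equal in both groups: Mrpl10, a protein of the stalk base, read 9.58 and 9.50 against 9.54 and 9.54, with a log2 difference of -0.002 ± 0.10. Mrpl40 read 9.71 and 9.81 against 9.79 and 9.77, a log2 difference of -0.03 ± 0.11. Mrpl44, which has a ribonuclease III fold, read 6.19 and 6.30 against 6.41 and 6.25 (-0.09 ± 0.12). Mrpl58, which releases stalled chains from the mitochondrial ribosome, read 7.77 and 7.81 against 7.92 and 7.90 (-0.11 ± 0.10). Mrpl47 read 5.78 and 5.99 against 6.16 and 5.83 (-0.11 ± 0.15), close to background. Mrpl37 and Mrpl41, proteins of mitochondria alone, did not overlap between groups and had small differences of 0.19 ± 0.10 each, from 9.03 and 9.01 against 8.84 and 8.83 for Mrpl37, and from 7.08 and 7.07 against 6.89 and 6.87 for Mrpl41. Mrps30 read 6.12 and 6.38 against 6.38 and 6.30 (-0.09 ± 0.13), and Mrps18a read 8.79 and 8.91 against 8.98 and 8.99 (-0.13 ± 0.11). Mrpl15, Mrpl24, Mrpl55, Mrpl20, Mrpl10, Mrpl58, Mrpl37 and Mrpl41 were named after their values were seen.

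In the small subunit, the members with the largest differences were Mrps28 on the lower side and Mrps21 on the higher. Mrps28 read 6.31 and 6.72 in GM-CSF cells against 6.87 and 6.91 in M-CSF cells (-0.38 ± 0.16, limma adjusted p = 0.197), with GM-CSF replicate 1 lowest, and was named after its values were seen. Mrps12, a protein of the decoding site, read 6.14 and 6.52 against 6.37 and 6.12 (0.09 ± 0.17), with each group spread over the other. Mrps15 read 9.80 and 9.65 against 9.78 and 9.71 (-0.02 ± 0.11), and Mrps17 read 6.28 and 5.97 against 6.42 and 6.13 (-0.15 ± 0.16). The related genes Mrps18b and Mrps18c encode proteins of this subunit. Mrps18b read 9.18 and 9.52 against 9.57 and 9.61 (-0.24 ± 0.14), and Mrps18c read 8.53 and 8.27 against 8.42 and 8.28 (0.05 ± 0.13). Mrps36, the member outside the ribosome, read 6.70 and 6.44 against 6.42 and 6.38 (0.17 ± 0.13). Mrpl46 and Mrps11, the only pair of members that follow each other among the protein-coding genes of RefSeq, had differences of -0.38 and 0.07; Mrps11 was named for this position after its values were seen.

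Of the members 8 had 2 probe sets, which allowed a second reading. Both probe sets of each gene had a difference of the same sign. For Mrpl23 the dimmer probe set read 9.10 and 9.13 against 9.54 and 9.60, a difference of -0.46, equal to that of the brighter one. For Mrpl27 the dimmer probe set read 7.10 and 7.49 against 7.02 and 6.998, a difference of 0.29 beside 0.39. Mrps33 and Mrps5 are named here for having 2 probe sets, after their values were seen. With the dimmer probe set first, the pairs were 0.17 and 0.19 for Mrpl41, -0.14 and -0.11 for Mrpl47, 0.31 and 0.24 for Mrpl51, -0.23 and -0.27 for Mrps33, 0.27 and 0.17 for Mrps36, and -0.003 and -0.11 for Mrps5. The positions of the probes are not used here, and a processed copy of a gene elsewhere in the genome could share its signal, so the second readings may not be independent.

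The factors whose motifs were searched gave small differences. Nrf1 differed by -0.05 ± 0.10, Gabpa, the DNA-binding chain of GABP, by -0.07 ± 0.11, Yy1 by -0.21 ± 0.11 and Myc by -0.16 ± 0.17, and none passed. They were named for the motifs and not for their values. Of 12 regulators of mitochondrial genes on the array, 11 passed the filter on dim genes and were tested. Of these 11, 1 was higher, 0 lower and 10 did not pass, beside 6.18% higher and 4.53% lower among all genes tested. The gene that was higher was Ppargc1b, a coactivator of genes for mitochondrial respiration. It read 7.08 and 7.20 in GM-CSF cells against 6.61 and 6.67 in M-CSF cells (0.50 ± 0.11, 1.41-fold, limma adjusted p = 0.0379). The call was lost when the first or the second M-CSF array was left out (limma adjusted p = 0.289 or 0.232), with no filter (0.0548) and with centring on the medians of the genes tested (0.0522). Members with an ETS core had a median difference of 0.05 (12 genes) and those without it -0.10. For the NRF1 core the medians were -0.03 (7 genes) and -0.09, for the YY1 core 0.00 (8 genes) and -0.10, and for the E-box 0.05 (5 genes) and -0.09.

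The other genes that serve mitochondrial protein synthesis were measured in the same fit. The 4 ribosomal proteins with other symbols had a median difference of -0.31, with 3 below 0 and 1 that passed. That gene, Chchd1, a small-subunit protein, was lower in GM-CSF cells, at 7.51 and 7.54 against 8.23 and 7.97 (-0.57 ± 0.13, limma adjusted p = 0.0404). Of 23 genes for ribosome assembly and modification of the ribosomal RNA, 1 was lower, 0 higher and 22 did not pass, with a median difference of -0.06. The lower one was Fastkd2, an RNA-binding protein needed to build the large subunit, at 6.22 and 6.47 against 6.89 and 6.91 (-0.56 ± 0.12, limma adjusted p = 0.0398). None of 13 translation factors (median -0.08) and none of 19 aminoacyl-tRNA synthetases (median -0.06), which charge the transfer RNAs, passed.

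Of 21 genes that transcribe, process and maintain the mitochondrial genome and its RNA, 1 was lower, 0 higher and 20 did not pass, with a median of -0.10. The lower one was Lrpprc, which stabilises mitochondrial messenger RNAs, at 7.57 and 7.76 against 8.27 and 8.11 (-0.52 ± 0.12, limma adjusted p = 0.0484). Leaving out the first or the second M-CSF array gave a limma adjusted p of 0.292 or 0.137 for Chchd1, 0.274 or 0.270 for Fastkd2, and 0.339 or 0.212 for Lrpprc, so all 3 calls were lost. The differences were then -0.44 or -0.70 for Chchd1, -0.57 or -0.55 for Fastkd2, and -0.44 or -0.61 for Lrpprc. The calls were also lost with no filter (0.056, 0.0558 and 0.0675), and Lrpprc with centring on array medians (0.0576) and with the replicate block (0.0668). Over the 4 lists of factors, without the 4 ribosomal proteins, 2 of 76 genes were lower and 0 higher. The background was 4.53% and 6.18%, and with so few calls the shares were not tested against it. The differences of the 76 genes had a median of -0.08 and ran from -0.56 to 0.25, a range inside that of the members.

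**Figure D4:**
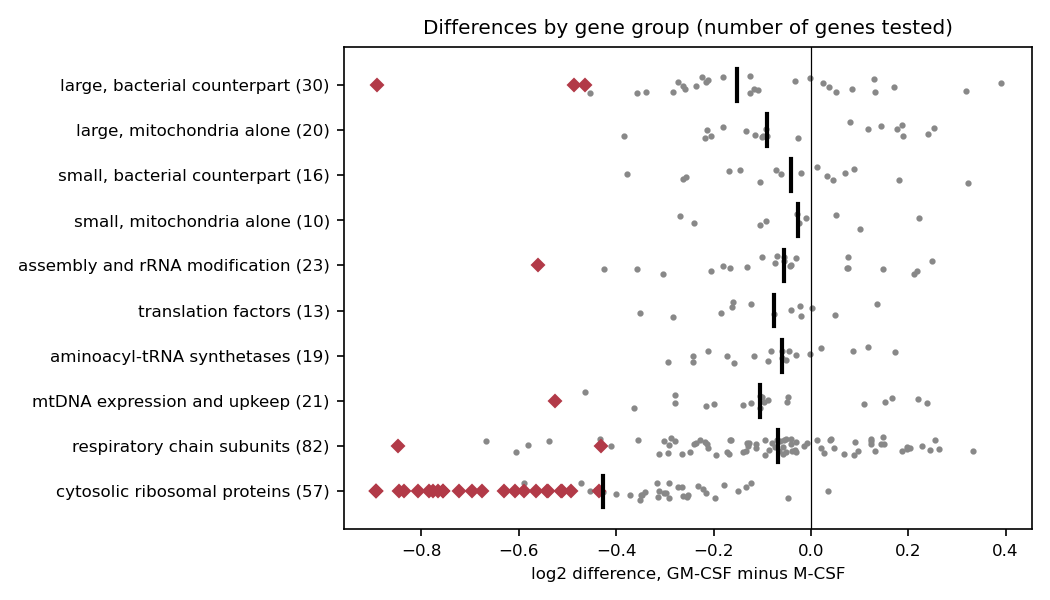
The log2 difference (GM-CSF minus M-CSF) of each tested gene (points, with diamonds for an adjusted p under 0.05) and the median (bars) are shown for the members by subunit and origin, for the other genes of mitochondrial gene expression, and for 2 comparison groups. The medians of the mitochondrial groups lie between -0.15 and -0.03, and that of the cytosolic ribosomal proteins at -0.43.

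The cytosolic ribosome and the respiratory chain are the gene groups closest to the members in function. Their counts stand beside 4.53% of all genes tested that were lower in GM-CSF cells and 6.18% that were higher. Of 57 cytosolic ribosomal protein genes tested, which build the ribosome of the cytosol, 24 were lower in GM-CSF cells and 0 higher, with a median difference of -0.43 and 56 below 0. Examples were Rpsa at 10.43 and 10.31 against 11.34 and 11.19 (-0.89 ± 0.11) and Rps29 at 9.44 and 9.62 against 10.41 and 10.35 (-0.85 ± 0.11). Many of these genes have near-identical processed copies, so their probe sets are uncertain. The count of 24 was 0 when either M-CSF array was left out. Of 82 nuclear-encoded subunits of the respiratory chain, 2 were lower and 0 higher, with a median of -0.07. They were Ndufa4, at 7.32 and 7.18 against 8.19 and 7.999 (-0.85 ± 0.12), and Cox4i1, at 9.18 and 9.20 against 9.64 and 9.60 (-0.43 ± 0.10). That count of 2 was 0 when either M-CSF array was left out, and up to 9 under the other settings. No test was made between these groups and the members. Of 19 genes of DNA replication and mitosis, which mark dividing cells, none passed, with a median of 0.09.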

How the data were processed

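Total RNA (300 ng per sample) was amplified and biotin-labelled for Affymetrix arrays, as the labels' protocols state. Per the submitters' processing notes, the authors used Affymetrix Expression Console 1.1 and RMA, and the deposited values are log2. The genome build and the level of RMA are not given in the sources used here. Of 35556 probe sets 21789 had 1 symbol in the platform annotation, 1621 several and 12146 none listed, and 21698 matched the RefSeq table (GRCm38.p6) by gene ID. Genes were tested when at least 2 of 4 arrays exceeded that array's 30th percentile (14995 genes).

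The comparison used R 4.3.3 and limma 3.58.1: lmFit, then eBayes, which added 4.17 prior to 2 residual degrees of freedom. Tests were two-sided, and p-values were adjusted over all genes by Benjamini-Hochberg, with a threshold of 0.05. Differences are GM-CSF minus M-CSF. The fit was also run on simulated data with the same spread in both groups. The replicate pairs here differ in spread, so that run does not check the calls. The number of arrays limits the precision, and no batch is named in the files used here. The members, gene lists, motifs and tests were chosen with earlier results of these data known. Members named with values are those past the threshold, the 5 with the largest difference in each direction, the 4 with the highest and the 4 with the lowest signal, the 2 on either side of the threshold, and Mrps30, Mrps18a, Mrps18b, Mrps18c, Mrpl12 and Mrps36; of other lists, up to 4 called genes. Members outside this rule are marked as named after their values were seen. Other settings were no filter, a 50th percentile filter, quantile normalization, centring, probe set means, trended and robust variances, a replicate block, and each array left out, with the genes tested kept.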

Additional observations from a re-analysis of the deposited data

How the results depend on the processing

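The count of members that were lower was 3, and 1 with no filter and 1 with the replicate block; with each array left out it ran from 0 to 9, and the count of members that were higher (0) from 0 to 2. The median difference of the members ran from -0.126 to -0.008 with each array left out and from -0.135 to -0.090 under the other settings. Of all genes 1605 were called, and from 233 to 3205 with each array left out. The 2 lower genes of the 4 mitochondrial gene expression lists were 0 with no filter, 1 centred on array medians, 1 with the replicate block, and 0 to 6 with each array left out. With all 4 arrays kept, the respiratory chain count of 2 ran from 1 to 6 and the cytosolic count of 24 from 20 to 27. The effect of leaving out an M-CSF array on these calls is given above. Centring on the medians of the genes tested, added after seeing the data, gave 841 genes higher and 865 lower against 926 and 679, moved the median of all genes from -0.013 to -0.056, and called the same 3 members. Mrpl16 was lost when centred on array medians (limma adjusted p = 0.056) and Mrpl16 and Mrpl23 with the replicate block (0.0613 and 0.0583). Same-numbered deviations correlated at 0.065 across genes. As this rests on a single pair of arrays in each group, it cannot show whether the replicate numbers share a batch. With 2 arrays per group, the 95% interval of a member reached a median of 0.28 on the log2 scale to either side.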
